A study of Homo sapiens with 54 samples.

Results

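HCT116, a human colon cancer line, was set against HepG2, a human liver cancer line, in cells that had received medium alone. The comparison took 6 of the 54 poly(A) RNA-seq libraries of the series, 3 mock-treated (NC) libraries of each line, chosen by their cell line and treatment labels. NC cells were given complete medium in the same volume as the treated cells, and their labels give no exposure time. The labels call HepG2 a liver cancer stem cell and HCT116 a colonic cancer cell line. The other libraries, 8 treated groups of 3 in each line, were exposed for 3 h or 6 h to 1 of 4 agents: Torin1, an mTOR inhibitor, at 1 µM, or the cytokines TNF-α at 100 ng/mL, IL-6 at 50 ng/mL and IL-10 at the same 50 ng/mL. They served to see whether a difference between the lines was also found in treated cells. Each tissue is represented by 1 line, so tissue of origin, donor and history of the culture cannot be told apart.

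Hepatocytes make most plasma proteins, and their genes are held on by a network of transcription factors in which HNF4A, the FOXA factors and CEBPA bind one another's promoters. Colon epithelium is instead specified by factors such as CDX2, and the HOX genes record the position of a cell along the gut and body axis. Tumour lines keep part of the program of the tissue they came from and lose part of it, and HepG2 is widely used as a source of secreted liver proteins, while HCT116 carries a mutated beta-catenin gene.

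Levels are the deposited FPKM values (fragments scaled to gene length and by a factor for each library, which was 0.998 to 1.002 times a median-of-ratios factor computed from the recovered reads and so is not the library total). They can be compared between genes. Differences are HCT116 minus HepG2 on the log2(FPKM + 1) scale, which understates the change of low genes, and values with ± are mean and SD of 3 libraries. The reads recovered from the FPKM values came to 39.96 to 45.12 M per NC library of HCT116 and 53.65 to 93.7 M in HepG2, so low values are more precise in HepG2. Between replicates the median gene differed by 0.044 to 0.061 (log2), and between the lines by 0.569 to 0.579. The share of reads from the mitochondrial genome was 8.09% to 8.58% in HCT116 NC and 10.09% to 10.93% in HepG2 NC. The 5 highest genes of HCT116 were the mitochondrial RNR2, COX3, COX2, ATP6 and COX1, and those of HepG2 were RNR2, COX3, COX2, COX1 and the albumin gene ALB.

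A low level of the other line's abundant transcripts was found in all 6 libraries. Of the genes with at least 200 FPKM in HepG2 and under 1% of that in HCT116, 29 in number, 24 stood in HCT116 below 0.1% of their HepG2 level. The 5 not below it, AKR1C3, FN1, SELENOP, DHRS2 and PEG10, lay above 0.1% in HCT116. The median over all 29 genes was 0.0499%, 0.0308% and 0.0422% in the 3 HCT116 libraries. In the opposite direction, 14 genes with at least 100 FPKM in HCT116 had medians of 0.0511%, 0.0869% and 0.204% of their HCT116 level in the 3 HepG2 libraries, highest in replicate 3. Where a level in the lower line is of this size it is given as measured, and its source was not tested.

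Of 12992 tested genes, 11115 (85.6%) differed between the lines in limma at an adjusted p under 0.05, 5486 higher in HCT116 and 5629 lower. Because so many genes passed, counts of at least 2-fold differences are also given: 1543 genes (11.9%) were at least 2-fold higher in HCT116 and 2046 (15.7%) at least 2-fold lower. At 16-fold or more, 96 were higher and 187 lower. The median difference over all tested genes was -0.0055. Scaling to total reads moved this median to 0.1881 and the calls to 6658 higher and 4542 lower, and upper-quartile scaling to 0.1177 and to 6234 and 4894. The balance of 2-fold calls turned with them, to 1981 higher and 1681 lower on total reads and 1785 and 1778 on the upper quartile. The number of 2-fold calls also depends on the pseudocount, and with 0.1 in place of 1 it was 2284 higher and 2733 lower. The small differences of ALDOA, ASL, MTOR, PMS1 and TFRC did not pass when scaled to total reads. The plot of the lines against each other shows both the genes that lie near the diagonal and those found at a high level in 1 line and near 0 in the other.

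**Figure D1:**
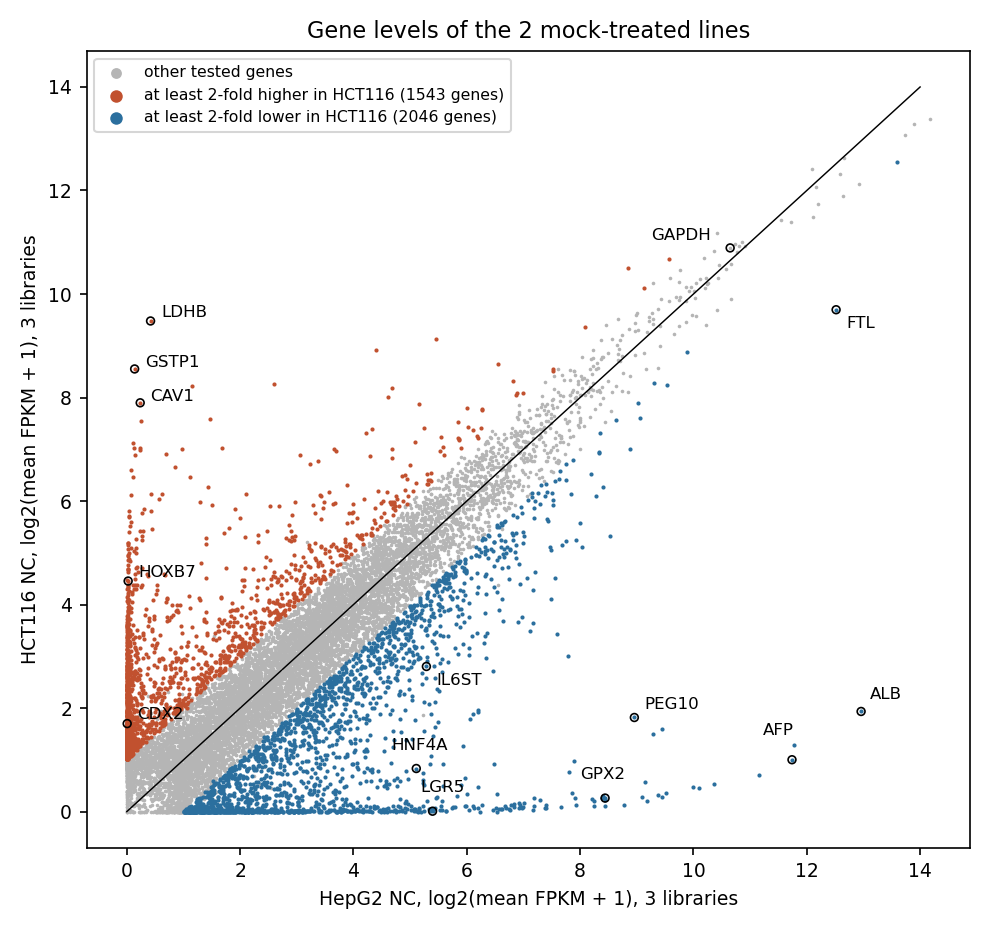
Each point is 1 of the 12992 tested genes, with log2 of the mean FPKM + 1 of the 3 NC libraries of HepG2 on the horizontal axis and of HCT116 on the vertical axis. The 1543 and 2046 coloured genes differed at least 2-fold, and LDHB, GSTP1 and CAV1 (HCT116) and ALB, AFP and GPX2 (HepG2) lie far from the diagonal, which marks equal levels.

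The treated libraries gave the same line differences for most genes. In the 8 treated groups, 11027 to 11138 genes were called between the lines, and 8775 genes (67.5%) were called in NC and in all 8 treated groups in the same direction. Of the 3589 genes at least 2-fold apart in NC, 3528 (98.3%) did so. Over all 54 libraries, 7058 genes (54.3%) had the 27 libraries of one line wholly above the 27 of the other, among them 3441 (95.9%) of those at least 2-fold apart in NC. The treated and NC libraries were grown from the same 2 lines, so this shows how steady the difference was over the study and nothing about other cultures. Whether replicates are separate cultures is not in the labels, so every p rests on a spread between libraries that could be technical.

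Of the genes called in NC and at least 2-fold apart, 8 were called in the opposite direction in some treated group. Among them, chosen after their values were seen, was SOCS3, the feedback inhibitor of JAK and STAT signalling, at 2.54, 3.02 and 3.36 FPKM in the NC libraries of HCT116 and 0.125, 0.0700 and 0.0560 in those of HepG2 (log2 1.87). After IL-6 for 6 h it was 3.91 ± 0.178 FPKM in HCT116 and 8.61 ± 0.394 in HepG2 (log2 -0.97), a change in the line difference of -2.84 (limma adjusted p = 1.10e-22). DDIT4, an inhibitor of mTOR complex activity, was 13.9, 11.2 and 12.4 FPKM in HCT116 NC and 42.5, 39.5 and 43.1 in HepG2 NC, and 8.87 ± 0.965 and 4.50 ± 0.292 FPKM after Torin1 for 6 h (log2 -1.66 and 0.84, change 2.50, limma adjusted p = 1.42e-20). For both genes the order of the lines in untreated cells did not hold under that treatment.

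Genes for secreted liver proteins were among the most widely separated. Of 22 tested plasma carrier and inhibitor proteins, 21 were lower in HCT116 (85.6% of all tested genes were called in either direction), 20 of them at least 2-fold (15.7% of all), and 1 did not pass (SERPINA6, 0.625 ± 0.0929 FPKM in HepG2, listed at 0 in the HCT116 libraries, a gene with a copy row, that is, an entry whose name is repeated in the table with a number added), with a list median of -6.76. ALB, the main carrier protein of blood, was 7984, 7752 and 8143 FPKM in the HepG2 libraries and 3.82, 1.91 and 2.74 FPKM in those of HCT116 (log2 -11.05 ± 0.26 SE, limma adjusted p = 6.37e-33). AFP, the fetal counterpart of albumin, was 3397, 3317.5 and 3538 FPKM in HepG2 and 1.31, 0.645 and 1.06 FPKM in HCT116 (log2 -10.75). For both genes all HepG2 libraries lay above all HCT116 libraries, and the HCT116 means were 0.0355% and 0.0293% of those of HepG2. In bulk RNA, fewer cells with a transcript and less of it per cell cannot be told apart. Others in the list carry iron (TF, 168 ± 6.77 FPKM in HepG2), vitamin A (RBP4, 439 ± 4.02) and thyroid hormone (TTR, 107 ± 1.90). In HCT116 these 3 stood at 0.0514 ± 0.0196, 0.0876 ± 0.0303 and 0.0217 ± 0.0376 FPKM.

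The promoters of such genes are shown because liver transcription factors act there. The letters GTTAAT, the core site of the factor HNF1, are found in several of these promoters. HNF1 is not among the liver factors named further on. The 150 bases before the start site of 4 secreted liver proteins each hold GTTAAT once, on 1 of the strands. The bases are from RefSeq on GRCh38.p14, 5′ to 3′ on the strand of the gene, with these letters, the core site, in capitals (as ATTAAC where it lies on the other strand).
ALB, chr4:73404137-73404286, plus strand: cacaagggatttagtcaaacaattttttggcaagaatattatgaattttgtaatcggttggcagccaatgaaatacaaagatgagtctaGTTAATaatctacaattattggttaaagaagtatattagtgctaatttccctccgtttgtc
AFP, chr4:73436071-73436220, plus strand: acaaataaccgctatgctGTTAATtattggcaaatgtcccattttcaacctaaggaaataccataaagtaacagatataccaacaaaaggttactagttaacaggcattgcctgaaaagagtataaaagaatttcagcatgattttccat
APOH, chr17:66229416-66229565, minus strand: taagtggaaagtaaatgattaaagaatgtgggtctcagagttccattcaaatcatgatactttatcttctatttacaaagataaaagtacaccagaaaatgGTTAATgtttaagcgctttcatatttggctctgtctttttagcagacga
FGA, chr4:154590743-154590892, minus strand: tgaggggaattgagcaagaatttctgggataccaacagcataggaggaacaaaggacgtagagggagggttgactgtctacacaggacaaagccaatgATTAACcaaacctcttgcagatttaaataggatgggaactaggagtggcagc
Counting back from the start site, with -1 the base before it, the core site began at -61 in ALB, -132 in AFP, -49 in APOH and -52 in FGA. These 4 were picked as examples that hold the match. In windows of 250 bases before to 50 after the start, 2417 of 35116 RefSeq promoters (6.88%) held the core site on either strand. Among tested genes with such a window and no copy row it was in 534 of 9449 (5.65%), against 21 of 141 (14.9%) of those at least 16-fold lower in HCT116 and 6 of 71 (8.45%) of those at least 16-fold higher. The HNF4 core site CAAAGT, searched in the same way, was in 11.6%, 22.7% and 15.5% of the same 3 sets, and the letters TATAAA in 8.23%, 18.4% and 21.1%. The 3 sets also differed in base composition, with a median of 25.5, 9 and 21 CG pairs per window, and its part in these shares was not tested. A match of letters is a description and not a binding site.

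Apolipoproteins, which package lipids for transport, were lower in HCT116 in 13 of 13 tested members, 11 at least 2-fold, with a median of -4.74. APOA2 stood at 3574, 3418 and 3463 FPKM in HepG2 and 2.18, 1.18 and 0.968 in HCT116 (log2 -10.51, limma adjusted p = 2.37e-35). APOH followed at 2270.3 ± 98.2 and 0.622 ± 0.270 FPKM, and APOA1, the main protein of high-density lipoprotein, at 697 ± 6.34 and 0.215 ± 0.0774 FPKM. SCARB1, which takes up high-density lipoprotein, differed least in the list, at 31.2 ± 0.858 and 16.8 ± 0.277 FPKM (log2 -0.85).

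Of the coagulation genes, 16 of 18 were lower in HCT116, 1 was higher and 1, F12, did not pass. The 3 fibrinogen chains FGA, FGB and FGG stood at 579.5 ± 3.48, 241 ± 2.37 and 733 ± 4.87 FPKM in HepG2 and at 0.152 ± 0.0566, 0.0967 ± 0.0317 and 0.289 ± 0.0548 FPKM in HCT116. Prothrombin (F2) was 124, 125 and 127 FPKM in HepG2 and 0.0791, 0.0706 and 0.0419 in HCT116. The member that ran the other way was F3, tissue factor, the cell-surface starter of clotting, at 49.1, 59.4 and 51.8 FPKM in HCT116 and 8.17, 9.96 and 9.03 in HepG2 (log2 2.44, limma adjusted p = 7.58e-25). TFPI, the inhibitor of tissue factor, was 219 ± 5.67 FPKM in HepG2 and 7.02 ± 0.0906 in HCT116 (log2 -4.78). In NC, HCT116 was thus the higher line for the initiator and the lower line for its inhibitor. The NC libraries did not overlap in either gene, but over all 27 libraries of each line those for F3 did.

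In the complement list 15 of 17 members were lower in HCT116, 12 at least 2-fold. C3, the central component, was 301 ± 3.68 FPKM in HepG2 and 0.148 ± 0.0264 in HCT116 (log2 -8.04). The surface regulators that shield a cell from complement were present in both lines: CD46 at 96.2 ± 1.29 and 37.2 ± 1.22 FPKM, and CD59 at 20.8 ± 0.347 and 14.4 ± 0.526 FPKM, in the order HepG2 and HCT116. Another regulator, CD55, was the member higher in HCT116 (4.87 ± 0.104 against 1.65 ± 0.155 FPKM, log2 1.15).

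The liver transcription factors followed the secreted proteins. Of 22 tested factors and nuclear receptors, 21 were lower in HCT116, 17 at least 2-fold, none was higher, and 1 did not pass. HNF4A was 33.3, 33.4 and 33.8 FPKM in HepG2 and 0.795, 0.786 and 0.762 in HCT116 (log2 -4.28, limma adjusted p = 6.16e-46). Its 27 HepG2 libraries all lay above the 27 of HCT116. FOXA1 stood at 36.7 ± 0.325 FPKM in HepG2 and 0.524 ± 0.0856 in HCT116, FOXA2 at 8.22 ± 0.153 and 0.0127 ± 0.0123, and FOXA3 at 11.5 ± 0.294 and 2.70 ± 0.359, so FOXA3 was the member of the family with the highest level in HCT116. HNF4A and FOXA1 in HCT116 were 2.33% and 1.43% of their HepG2 level, both above the median shares of the abundant transcripts given before.

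Among the nuclear receptors, NR1H4, the bile acid receptor, was 14.3 ± 0.732 FPKM in HepG2 and 0.00327 ± 0.00566 in HCT116, and NR0B2, the repressor it induces, was 32.5 ± 0.269 and 0.0348 ± 0.0491 FPKM. CEBPA was 40.6 ± 1.21 FPKM in HepG2 and 2.69 ± 0.168 in HCT116 (log2 -3.49), and its relative CEBPB, which acts in inflammation, was 12.02 ± 0.405 and 4.91 ± 0.249 FPKM (log2 -1.14). The broadly expressed receptors RXRA (log2 -0.34) and NR1H3 (log2 -0.55) differed by less than 2-fold.

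**Figure D2:**
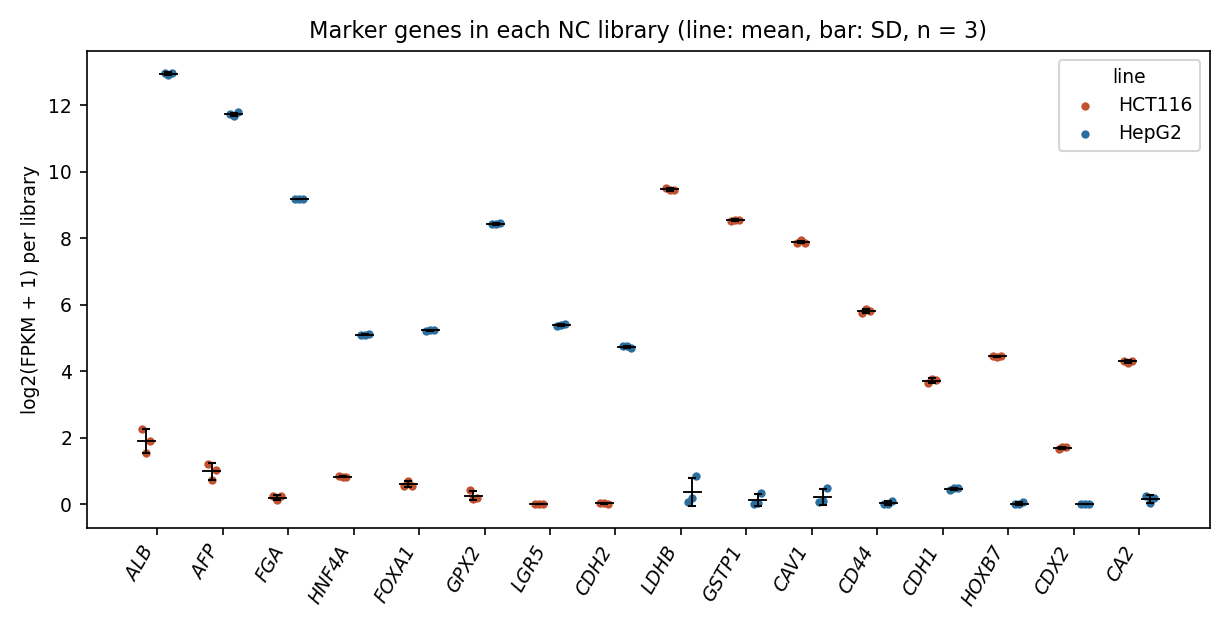
Points are log2(FPKM + 1) of 16 genes in each of the 3 NC libraries of HCT116 and HepG2, with the mean as a line and the SD as a bar. ALB, AFP and LDHB show spread between replicates in the line where they are low, where ALB lay between 0.827 and 4.65 FPKM over the 27 HCT116 libraries.

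Drug and hormone metabolism in the liver rests on cytochrome P450 and conjugating enzymes. In the list of these 13 of 16 tested members were lower in HCT116 and 3 were higher, but 17 of the 33 listed genes stayed under the filter in both lines. The steroid sulfotransferase SULT2A1 (169 ± 5.95 FPKM in HepG2 and 0.0864 ± 0.0501 in HCT116), the bile acid enzyme CYP27A1 (46.3 ± 1.53 and 0.146 ± 0.139) and the glucuronosyltransferase UGT2B4 (24.8 ± 0.0422 and 0.00904 ± 0.00927) were among the lower ones. CYP3A4 and CYP2E1, main drug-metabolising enzymes of adult liver, reached at most 0.0951 and 0.480 FPKM in any of the 27 HepG2 libraries. The retinaldehyde dehydrogenases were exchanged between the lines. ALDH1A1 was 170.1, 164 and 163 FPKM in HepG2 and 0.0643, 0.0574 and 0.0398 in HCT116, while ALDH1A3 was 34.3, 37.1 and 35.7 FPKM in HCT116 and 0, 0.00571 and 0.0391 in HepG2 (log2 -7.31 and 5.18).

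Of 15 tested hepatocyte transporters, 14 were lower in HCT116, 11 at least 2-fold. The canalicular pump ABCC2 was 84.7 ± 1.68 FPKM in HepG2 and was still 21.4 ± 0.184 FPKM in HCT116 (log2 -1.93), and the multidrug pump ABCB1 was 21.2 ± 0.300 and 0.523 ± 0.0246 FPKM (log2 -3.87). The liver uptake carrier SLCO1B3 was the member higher in HCT116, at 0.967, 1.31 and 1.12 FPKM against 0, 0.0378 and 0.0144 in HepG2 (log2 1.06). In neither line did its neighbour SLCO1B1 exceed 0.137 FPKM.

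Amino acid breakdown showed 2 levels of difference. Genes of tyrosine breakdown were far apart: HPD was 55.96 ± 2.64 FPKM in HepG2 and 0.238 ± 0.0576 in HCT116, and HGD 67.8 ± 1.93 and 0.0732 ± 0.0598. The tested urea cycle genes named here differed by less than 2-fold. CPS1, the entry enzyme, was 11.2, 11.6 and 10.8 FPKM in HepG2 and 6.73, 6.56 and 7.0002 in HCT116 (log2 -0.66, limma adjusted p = 1.25e-20), ASS1 was 24.4 ± 1.32 and 17.6 ± 1.28 FPKM (log2 -0.45) and ASL 14.3 ± 0.188 and 11.7 ± 0.323 FPKM (log2 -0.27). OTC, the second enzyme of the cycle, stayed under the filter with at most 0.0893 FPKM in HepG2 and 0.120 in HCT116. CPS1 is a hepatocyte marker, and its level in HCT116 was 60.2% of that in HepG2. Over the whole list 15 of 16 members were lower in HCT116, 10 at least 2-fold.

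Glutathione and NRF2 target genes protect against electrophiles and oxidants, and 26 of 33 were lower in HCT116, 20 at least 2-fold, while 5 were higher. GPX2, the gastrointestinal glutathione peroxidase, was 343, 342 and 354 FPKM in HepG2 and 0.336, 0.120 and 0.140 in HCT116 (log2 -8.18, limma adjusted p = 2.02e-47). The aldo-keto reductases AKR1C1, AKR1C2 and AKR1C3 stood at 120.3 ± 6.91, 201 ± 2.97 and 231 ± 0.917 FPKM in HepG2 and at 0.0495 ± 0.00306, 0.0621 ± 0.0103 and 0.289 ± 0.0248 in HCT116, and since their sequences are much alike the split of reads among them is uncertain. Genes commonly read as NRF2 targets in many cell types differed less: NQO1 was 321 ± 5.82 and 122 ± 1.85 FPKM and GCLC 62.5 ± 2.55 and 23.6 ± 0.156 FPKM. TXNRD1, at 143 ± 3.95 and 158 ± 4.67 FPKM, did not pass.

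The glutathione transferases were exchanged. The pi-class gene GSTP1, which conjugates glutathione to electrophiles, was 368, 378 and 376 FPKM in HCT116 and 0, 0.0267 and 0.275 in HepG2 (log2 8.42 ± 0.097 SE, limma adjusted p = 6.34e-44). Over all 27 libraries of each line it ranged from 365 to 444 FPKM in HCT116 and from 0 to 0.446 in HepG2. The alpha-class gene GSTA1, a main transferase of liver, was 13.7 ± 0.242 FPKM in HepG2 and 0.0214 ± 0.0222 in HCT116, and GSTA4 was 26.2 ± 0.580 and 0.417 ± 0.133 FPKM. ME1, which makes NADPH from malate, had the widest difference toward HCT116 in this list after GSTP1 (28.2 ± 1.20 against 0.0109 ± 0.00987 FPKM).

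The GSTP1 promoter is shown beside those of the liver genes for its base composition, with each CG in capitals.
GSTP1, chr11:67583662-67583811, plus strand: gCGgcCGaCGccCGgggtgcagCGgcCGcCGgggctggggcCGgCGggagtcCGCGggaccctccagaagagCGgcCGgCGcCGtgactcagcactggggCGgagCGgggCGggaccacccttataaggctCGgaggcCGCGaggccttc
The 300-base window of GSTP1 held 36 CG pairs and that of ALB 4, an observed-to-expected ratio (the CG count times the window length over the product of the C and G counts) of 0.88 and 0.48. Over 9449 tested genes with a window and no copy row the median ratio was 0.82, and 80.7% were over 0.6. Of the 141 genes at least 16-fold lower in HCT116, 34.8% were over 0.6 (median 0.41), and of the 71 at least 16-fold higher, 64.8% (median 0.69). Methylation was not measured in these samples, and nothing here bears on it.

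The largest differences toward HCT116 were in a mixed group of genes. By the rule of largest called difference they were, in order, LDHB, GSTP1, CAV1, EREG, PDP1, S100A6, ANXA1, SPINT2, EEF1A2, MAGEB2, GTSF1 and CAV2. EREG, a ligand of the EGF receptor, was 179, 196 and 181 FPKM in HCT116 and 0.122, 0.146 and 0.306 in HepG2. PDP1, a phosphatase that activates pyruvate dehydrogenase, was 299 ± 2.04 and 1.21 ± 0.146 FPKM, and SPINT2, an inhibitor of surface serine proteases, 129.7 ± 3.64 and 0.172 ± 0.143 FPKM. MAGEB2, normally a testis gene, was 119, 119.8 and 114 FPKM in HCT116 and 0.0388, 0.0239 and 0.260 in HepG2, and GTSF1, a germline factor of the piRNA pathway, 96.2 ± 2.59 and 0.0501 ± 0.0868 FPKM. All 12 genes had their 27 HCT116 libraries above the 27 of HepG2. The 12 largest in the other direction were ALB, AFP, APOA2, APOH, LYZ, AHSG, ITIH2, APOA1, FGG, AMBP, FGA and A2M, and these were likewise apart in all libraries. The fetuin AHSG (1096 ± 16.3 FPKM in HepG2 and 0.371 ± 0.0503 in HCT116), the hyaluronan-binding ITIH2 (1019 ± 0.426 and 0.392 ± 0.133), AMBP (666 ± 1.23 and 0.244 ± 0.118) and the protease inhibitor A2M (545 ± 15.02 and 0.212 ± 0.0906) are also secreted by the liver.

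LYZ, the secreted antibacterial enzyme lysozyme, was the exception among these 12, since it is best known from macrophages and Paneth cells. It stood at 1315, 1316 and 1301 FPKM in HepG2 and 0.573, 0.404 and 0.378 in HCT116 (log2 -9.82). Of 11 blood cell markers, 3 passed the filter (LYZ, CD68 and CD14), all lower in HCT116. Without LYZ, the other 10 summed to 30.8 to 34.3 FPKM in the HepG2 libraries and 4.03 to 4.25 in HCT116. The leukocyte marker PTPRC was listed at 0 in all 27 HepG2 libraries, and CD3E, CSF1R and ITGAM reached at most 0.0241, 0.0264 and 0.0766 FPKM there. CD68, a lysosomal protein, was 31.6 ± 1.83 FPKM in HepG2 and 3.73 ± 0.106 in HCT116, and CD14 0.845 ± 0.137 and 0.110 ± 0.0958 FPKM. Nearly all of the sum in HepG2 was CD68, and the defining leukocyte markers were at or near 0.

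Glycolysis genes went both ways, 11 of 24 higher in HCT116 and 11 lower, with a median of -0.05, and the wide differences were between isozymes. LDHB, the lactate dehydrogenase subunit that favours the use of lactate, was 736, 698 and 704 FPKM in HCT116 and 0.0527, 0.141 and 0.818 in HepG2 (log2 9.10 ± 0.19 SE, limma adjusted p = 3.97e-35). Its partner LDHA was listed with no library above 3.56 FPKM in either line, and the aldolase ALDOA at 1.91 and 2.43 FPKM in NC, values that are far under those of neighbouring steps such as TPI1 (404 ± 2.64 and 316 ± 3.72 FPKM) and that may be failed estimates, so no comparison of LDHA with LDHB was made.

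Hexokinase, the first step, was divided between HK1, 12.3, 12.9 and 12.7 FPKM in HCT116 and 0.371, 0.448 and 0.344 in HepG2, and HK2, 12.01 ± 0.616 and 28.3 ± 0.390 FPKM (log2 3.30 and -1.17). Of the 3 phosphofructokinase subunits, PFKP (65.2 ± 1.34 and 0.480 ± 0.163 FPKM) and PFKM (23.2 ± 0.137 and 0.285 ± 0.0202 FPKM) were higher in HCT116 and the liver type PFKL was lower (17.8 ± 0.578 and 25.8 ± 1.01 FPKM, log2 -0.51). The glucose carriers ran opposite ways, with SLC2A1 at 79.3 ± 4.42 FPKM in HCT116 and 38.4 ± 1.38 in HepG2, and SLC2A3 at 0.369 ± 0.0647 and 23.2 ± 0.604. SLC2A2, the carrier of hepatocytes, was 12.2 ± 0.315 FPKM in HepG2 and 0.00886 ± 0.00438 in HCT116. GAPDH, the shared middle step, differed little (1897 ± 49.2 and 1603 ± 23.8 FPKM, log2 0.24), and PGK1 (log2 -0.07) and PGAM1 (log2 -0.03) did not pass.

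**Figure D3:**
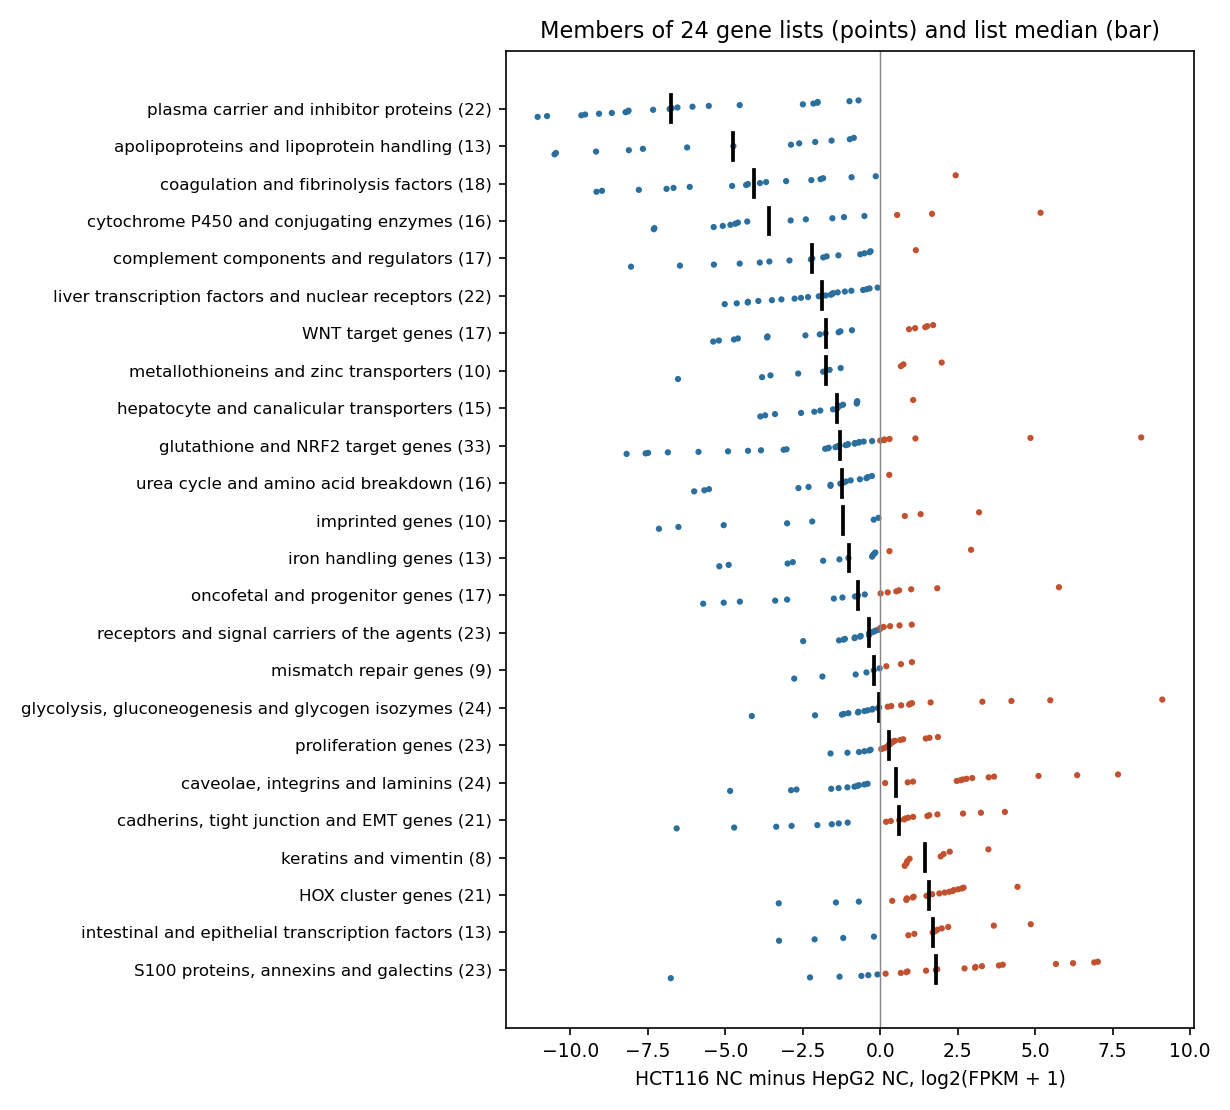
Each point is a tested gene of 1 of 24 lists, placed by its difference (HCT116 NC minus HepG2 NC, log2(FPKM + 1)), with the list median as a bar and the number of tested genes in brackets (blue points lower and red points higher in HCT116). The lists of plasma carriers, apolipoproteins and coagulation factors lie furthest to the left, with medians of -6.76, -4.74 and -4.07, and S100 proteins, annexins and galectins furthest to the right at 1.80.

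Intestinal and epithelial transcription factors were mostly higher in HCT116, with 9 of 13 tested members higher, 8 of them at least 2-fold, and 4 lower. CDX2, which specifies intestine, was low but separate: 2.19, 2.28 and 2.28 FPKM in HCT116 and 0, 0.00878 and 0.00502 in HepG2 (log2 1.69, limma adjusted p = 6.36e-32). KLF4 was 12.1 ± 0.494 FPKM in HCT116 and 0.0352 ± 0.0405 in HepG2, KLF5 20.5 ± 1.18 and 5.28 ± 0.184, and EHF 3.09 ± 0.104 and 0.0324 ± 0.0123 FPKM. ESRP1, a splicing regulator of epithelial cells, was 29.2, 28.2 and 28.4 FPKM in HCT116 and 0, 0 and 0.0630 in HepG2 (log2 4.86), while its relative ESRP2 was found in both (14.3 ± 0.651 and 7.13 ± 0.0836 FPKM). GRHL2, which keeps epithelial genes on, was 2.63 ± 0.271 and 0.00497 ± 0.00495 FPKM. SOX9, a factor of progenitor cells in gut crypts and bile ducts, was lower in HCT116 (9.66 ± 0.810 against 45.1 ± 0.780 FPKM, log2 -2.12).

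The colon label of HCT116 was checked against 14 markers of colon epithelium, of which 5 passed the filter. CDX2 and the carbonic anhydrase CA2 (18.7 ± 0.477 and 0.124 ± 0.0882 FPKM, log2 4.13) were higher in HCT116. The other 3 tested markers were lower in HCT116. VIL1, the villin of brush borders, and LGR5 were at least 2-fold lower, and the third differed by less, at the list median of -0.2. The 9 that did not pass the filter were at or near 0. In any of the 27 HCT116 libraries CDH17 reached at most 0.0693 FPKM, GPA33 0.0961, KRT20 0.0244, CEACAM5 0.0211 and MUC2 0.0192. The 14 markers summed to 22.5 to 23.8 FPKM in the HCT116 libraries, most of it CA2, and to 90.7 to 94.7 FPKM in HepG2, most of it VIL1 and LGR5. The label of HCT116 thus rests on few of its markers. For HepG2, 13 of 15 hepatocyte markers were tested and all 13 were higher there (85.6% of all tested genes were called in either direction). A marker near 0 in HCT116 can pass the filter only through HepG2, so for such markers the direction was fixed in advance. The 15 markers summed to 10881 to 11310 FPKM in the HepG2 libraries and 9.405 to 11.9 in those of HCT116. APOB and CYP3A4 stayed under the filter. APOB, listed with at most 0.238 FPKM in HepG2, may be a failed estimate like those of FTH1 and LDHA, and nothing is read from it.

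VIL1 was 47.1, 49.99 and 49.2 FPKM in HepG2 and 0.0242, 0 and 0.0193 in HCT116 (log2 -5.62), and it overlaps the gene USP37 in the annotation. The fatty acid binding protein FABP1, made in both liver and gut, was 346 ± 32.2 and 0.0716 ± 0.0677 FPKM, whereas FABP5 was higher in HCT116 (402 ± 7.62 against 92.2 ± 3.41 FPKM). Of the 30 genes for mucins, trefoil factors and other intestinal secreted or surface proteins, 23 stayed under the filter in both lines.

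HOX genes differed mostly toward HCT116. Of 39 listed, 18 stayed under the filter. Among the 21 tested, 18 were higher in HCT116, 14 at least 2-fold, and 3 lower, with a median of 1.57. For 17 of the higher ones the lines were apart in all libraries (54.3% of all tested genes in either direction). Of all tested genes 85.6% were called and 11.9% were at least 2-fold higher. Members near 0 in HepG2 could pass the filter only through HCT116, so their direction was fixed in advance. With the filter applied to the NC libraries alone, 15 of 18 were higher. HOXB7 led with 20.9, 20.6 and 21.3 FPKM in HCT116 and 0, 0 and 0.0498 in HepG2 (log2 4.43, limma adjusted p = 4.37e-47). The genes HOXB4, HOXB5, HOXB6 and HOXA9 were listed at 0 in the 3 HepG2 libraries and stood at 4.21 ± 0.541, 1.97 ± 0.0774, 4.07 ± 0.345 and 2.75 ± 0.138 FPKM in HCT116. Members near the posterior end of their clusters were also detected in HCT116, with HOXA11 at 5.25 ± 0.524, HOXA13 at 1.14 ± 0.0836, HOXB13 at 1.84 ± 0.319 and HOXC13 at 1.12 ± 0.154 FPKM. In HepG2 these 4 were at most 0.0155, 0.0192, 0.0149 and 0.0516 FPKM in any of 27 libraries.

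The 3 members higher in HepG2 have low numbers, which mark the anterior end of a cluster, but HOXA5 was higher in HCT116 (log2 0.39). HOXA3 was 1.29 ± 0.0473 FPKM in HepG2 and 0.426 ± 0.0939 in HCT116, HOXA4 2.30 ± 0.310 and 0.223 ± 0.0657, and HOXD1 8.17, 9.02 and 9.05 and 0.0111, 0.00993 and 0 FPKM (log2 -3.27). HOXD1 was the single listed HOX gene with a mean above 5 FPKM in HepG2. No HOXB gene exceeded 0.0498 FPKM in any of the 27 HepG2 libraries, while HOXB7 was at least 17.9 FPKM in all 27 of HCT116. Several HOX genes overlap neighbours or antisense genes, and the library kit is not stated to keep strand, so their reads cannot be assigned with certainty.

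**Figure D4:**
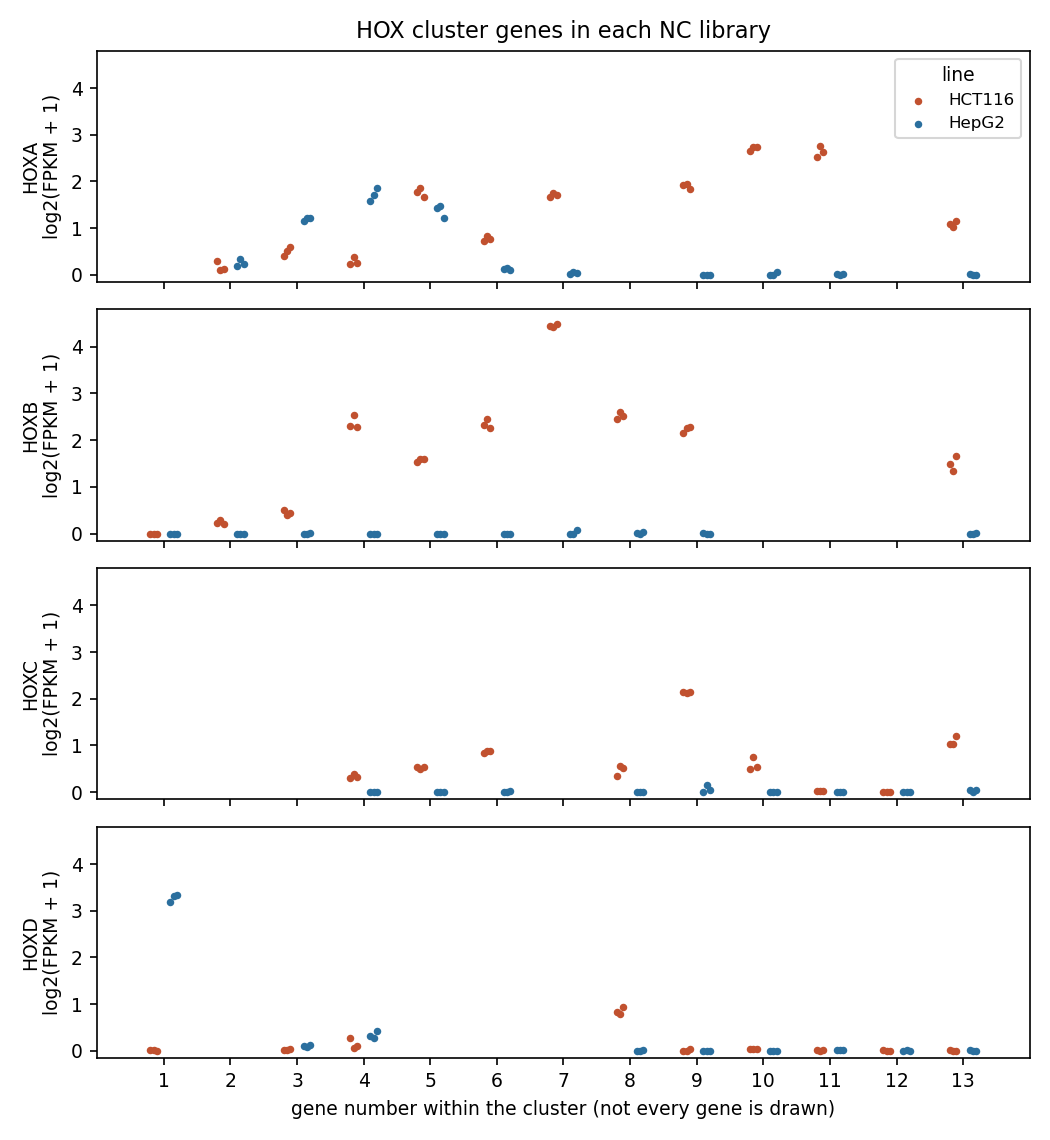
Points are log2(FPKM + 1) of the HOX genes in each NC library, in 4 panels for clusters A to D, with the gene number within the cluster on the horizontal axis (1 listed gene is not drawn). HCT116 libraries are above HepG2 through most of clusters A to C, and HOXD1, HOXA3 and HOXA4 are higher in HepG2.

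Epithelial structure genes differed in which member was used. All 8 tested keratins were higher in HCT116, 4 at least 2-fold. Of all tested genes 85.6% were called in either direction and 11.9% were at least 2-fold higher. With the filter applied to the NC libraries alone, 6 keratins were tested and all 6 were higher. KRT8 and KRT18, the pair of simple epithelia, were abundant in both lines (729 ± 42.7 and 677 ± 34.3 FPKM in HCT116, 404 ± 11.96 and 350.2 ± 10.05 in HepG2), while KRT19, absent from mature hepatocytes, was 275, 304 and 286 FPKM in HCT116 and 23.7, 25.7 and 24.7 in HepG2 (log2 3.49). Of 21 cadherin, junction and EMT genes, 13 were higher in HCT116 and 8 lower. E-cadherin (CDH1) was 11.5, 12.6 and 12.5 FPKM in HCT116 and 0.355, 0.414 and 0.397 in HepG2, P-cadherin (CDH3) 15.4 ± 0.739 and 0.00916 ± 0.0159, and N-cadherin (CDH2) 0.0294, 0.0175 and 0.0137 and 26.1, 25.999 and 25.1 FPKM (log2 3.25, 4.02 and -4.71). N-cadherin is a normal cadherin of hepatocytes. The tight junction genes were split between CLDN4, 34.1 ± 2.69 and 11.2 ± 0.833 FPKM, and CLDN1, 0.0353 ± 0.0259 and 97.2 ± 2.40 FPKM, in the order HCT116 and HepG2.

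S100 proteins, annexins and galectins, which bind calcium, membranes or sugars, were higher in HCT116 in 17 of 23 members, 13 at least 2-fold, with the largest median of the described lists toward HCT116 (1.80). S100A6 was 136, 141 and 141 FPKM in HCT116 and 0, 0.132 and 0.101 in HepG2, ANXA1 129 ± 1.89 and 0.0868 ± 0.107, and S100A14 119 ± 7.02 and 0.608 ± 0.180 FPKM. S100P was the opposite case, at 0.286, 0.0852 and 0 FPKM in HCT116 and 128, 118 and 114 in HepG2 (log2 -6.76).

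Caveolae are flask-shaped pits of the plasma membrane built by caveolins and cavins. CAV1 was 234, 245 and 234 FPKM in HCT116 and 0.0524, 0.0647 and 0.417 in HepG2 (log2 7.68, limma adjusted p = 1.74e-42), and CAV2 was 87.7 ± 2.13 and 0.0832 ± 0.0714 FPKM. CAVIN1 was 38.1 ± 2.44 FPKM in HCT116 and 6.05 ± 0.378 in HepG2, and CAVIN2 0.0503 ± 0.0134 and 29.1 ± 0.451, so the cavins did not all follow the caveolins. Among integrins, ITGA3 (37.7 ± 3.23 and 0.118 ± 0.0514 FPKM) and ITGB4 (12.5 ± 0.160 and 0.727 ± 0.0360) were higher in HCT116, ITGA1 was lower (0.116 ± 0.0296 and 6.26 ± 0.166), and the common beta subunit ITGB1 differed by less than 2-fold (log2 -0.41). Laminin chains were likewise divided, with LAMB3 higher in HCT116 (5.13 ± 0.284 FPKM, 0.0140 ± 0.00577 in HepG2) and LAMB1 lower (5.45 ± 0.274 and 46.4 ± 0.887 FPKM). Over the list 13 of 24 were higher and 11 lower.

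WNT signalling stabilises beta-catenin, and many of its targets feed back on the pathway. Both lines are known to carry stabilised beta-catenin, yet 12 of 17 tested targets were lower in HCT116, 11 at least 2-fold, and 5 higher (median -1.76). LGR5, the receptor that marks intestinal stem cells, was 40.4, 41.4 and 41.5 FPKM in HepG2 and 0.00444, 0.00793 and 0.00412 in HCT116 (log2 -5.39 ± 0.022 SE, limma adjusted p = 3.79e-58). In the 27 libraries of HCT116 it reached at most 0.0513 FPKM, against at least 26.8 FPKM in HepG2. The feedback inhibitors NOTUM (36.7 ± 1.29 FPKM in HepG2 and 0.432 ± 0.0403 in HCT116), NKD1 (20.6 ± 0.633 and 0.719 ± 0.0914) and AXIN2 (17.6 ± 0.441 and 2.50 ± 0.129) and the factor SP5 (24.99 ± 0.262 and 0.0778 ± 0.0286) lay the same way, as did the receptor gene TNFRSF19 (43.1 ± 0.0723 and 0.196 ± 0.0418).

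The WNT targets higher in HCT116 were growth genes and others: MYC was 100.3, 108 and 100.3 FPKM in HCT116 and 29.8, 32.2 and 30.3 in HepG2, CCND1, a cyclin, 219 ± 13.6 and 75.9 ± 1.27 FPKM, and TCF7L2, the factor that beta-catenin binds in gut, 23.1 ± 0.562 and 7.79 ± 0.364 FPKM. BMP4 and EPHB2 stood at log2 1.13 and 0.93. DKK1, a secreted WNT inhibitor, was abundant in both lines (303 ± 14.6 FPKM in HCT116 and 738 ± 4.08 in HepG2, log2 -1.28).

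Iron is stored in ferritin and its release is set by hepcidin, a liver hormone. The ferritin light chain FTL was 5525, 6206 and 5858 FPKM in HepG2 and 818, 848 and 820.4 in HCT116 (log2 -2.82, limma adjusted p = 1.08e-34), and the heavy chain FTH1 was listed at 0 in all 54 libraries, so the ratio of the chains cannot be given. Hepcidin (HAMP) was 31.5, 31.1 and 26.4 FPKM in HepG2 and 0, 0.0988 and 0 in HCT116, and the exporter it blocks, SLC40A1, was 43.2 ± 2.05 and 0.211 ± 0.0594 FPKM. The uptake receptor TFRC was close in the lines (218 ± 2.97 and 182 ± 1.34 FPKM, log2 -0.26). CYBRD1, the duodenal iron reductase, was the member with the widest difference toward HCT116 (7.96 ± 0.171 against 0.174 ± 0.0310 FPKM). In all, 11 of 13 iron genes were lower in HCT116, 7 at least 2-fold. Of all tested genes 85.6% were called in either direction and 15.7% were at least 2-fold lower. With upper-quartile scaling 9 of the 13 iron genes were lower, and when scaled to total reads 7. Among metallothioneins, which bind zinc and copper, MT1G was 91.1 ± 2.02 FPKM in HepG2 and listed at 0 in HCT116, while MT2A was 439 ± 23.8 FPKM in HCT116 and 260.5 ± 9.54 in HepG2. With the zinc transporters, 7 of 10 in that list were lower in HCT116 and 3 higher.

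Oncofetal genes, active in the embryo and again in tumours, were mostly higher in HepG2 (10 of 17 lower in HCT116 and 6 higher). The RNA-binding proteins IGF2BP1 and LIN28B, which hold back let-7 microRNA action, were 54.02, 56.5 and 53.4 and 23.2, 22.4 and 22.8 FPKM in the HepG2 libraries and 0.0617 ± 0.00453 and 0.0316 ± 0.0114 FPKM in HCT116. The paralogs IGF2BP2 (18.1 ± 0.528 FPKM in HCT116 and 15.1 ± 0.430 in HepG2) and IGF2BP3 (22.6 ± 0.533 and 15.4 ± 0.246) differed by less than 2-fold in the other direction. The liver tumour antigen GPC3 was 10.8 ± 0.557 FPKM in HepG2 and 0.129 ± 0.0607 in HCT116. CD44, a hyaluronan receptor, was 52.7, 57.8 and 55.2 FPKM in HCT116 and 0.00226, 0.0140 and 0.0783 in HepG2 (log2 5.77), and PROM1 was 5.06 ± 0.0309 and 0.693 ± 0.0601 FPKM. Genes used as stem or progenitor markers thus went both ways, with LIN28B, LGR5 and SOX9 higher in HepG2 and CD44 and PROM1 higher in HCT116.

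Imprinted genes are expressed from 1 parental copy. PEG10 was 500.5, 499.9 and 488 FPKM in HepG2 and 2.42, 2.66 and 2.50 in HCT116 (log2 -7.14), PEG3 93.5 ± 2.47 and 0.0354 ± 0.0140, and DLK1 33.1 ± 0.695 and 0.0304 ± 0.00710 FPKM. IGF2, the fetal growth factor, was 7.20 ± 0.554 FPKM in HepG2 and 0.0211 ± 0.00373 in HCT116, and overlaps a read-through gene. PLAGL1 was higher in HCT116, 8.39 ± 0.347 against 0.0276 ± 0.0102 FPKM. Of 10 tested imprinted genes, 5 were lower in HCT116, 3 higher and 2, MEST and NNAT, did not pass.

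Most genes of cell division differed by less than 2-fold, as did most tested genes. Of 23 proliferation genes 16 were higher in HCT116 and 6 lower, with a median of 0.27. Of these, 3 and 2 reached 2-fold. Over all tested genes 85.6% were called, 11.9% were at least 2-fold higher and 15.7% at least 2-fold lower. CCNE2 (10.2 ± 0.0210 FPKM in HCT116 and 2.09 ± 0.136 in HepG2) and the helicase subunit MCM6 (89.9 ± 1.11 and 29.2 ± 0.602) led the higher ones, and TOP2A, the topoisomerase of dividing cells, was lower (59.9 ± 4.38 and 183.5 ± 4.42 FPKM, log2 -1.60). Among cell cycle inhibitors, CDKN2A was 8.78, 8.96 and 7.99 FPKM in HCT116 and 0.0859, 0.117 and 0.0894 in HepG2 (log2 3.12), and it overlaps antisense genes. CDKN1B and CDKN2C were lower in HCT116 (log2 -1.22 and -1.56), and the kinase CDK6 was 8.02 ± 0.113 and 33.2 ± 0.553 FPKM. CDK4 (log2 0.04) and RB1 (log2 0.06) did not pass.

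Mismatch repair corrects replication errors. Of 9 tested genes 3 were higher in HCT116, 1 at least 2-fold, 5 lower, 2 at least 2-fold, and 1 did not pass. Over all tested genes 85.6% were called, 11.9% were at least 2-fold higher and 15.7% at least 2-fold lower. MSH3 was 1.01, 1.00 and 0.901 FPKM in HCT116 and 6.39, 5.996 and 6.16 in HepG2 (log2 -1.86, limma adjusted p = 9.31e-29), with no overlap of the NC libraries. PMS1 and PMS2 stood at log2 -0.21 and 0.67. The nuclease EXO1 was higher in HCT116 (24.2 ± 0.658 and 11.4 ± 0.116 FPKM, log2 1.02).

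The receptors and signal carriers of the agents used elsewhere in the series are given for their levels in untreated cells. Of 23 tested genes, 15 were lower in HCT116, 4 at least 2-fold, and 4 higher, 1 at least 2-fold. Of all 12992 tested genes 85.6% were called, 5629 lower and 5486 higher. At least 2-fold, 15.7% of all were lower and 11.9% higher. When scaled to total reads, 12 of the 23 were lower and 7 higher. Whether these levels bear on the response to the agents was not tested. IL6ST, the signalling subunit for IL-6, was 39.2, 37.3 and 37.7 FPKM in HepG2 and 6.23, 5.43 and 6.29 in HCT116 (log2 -2.49, limma adjusted p = 1.68e-35). The kinase JAK1 and the factor STAT3 it acts on stood at 7.03 ± 0.0899 and 30.6 ± 0.594 FPKM in HepG2 and 3.56 ± 0.0730 and 11.6 ± 0.447 in HCT116. The TNF receptor TNFRSF1A was 28.96 ± 1.27 FPKM in HepG2 and 18.4 ± 0.0954 in HCT116 (log2 -0.63), and its adaptor TRADD was the higher in HCT116 (log2 0.62). For Torin1, the target kinase MTOR was 15.1 ± 0.105 and 12.4 ± 0.266 FPKM (log2 -0.26) and its substrate kinase RPS6KB1 was the member with the widest difference toward HCT116 (log2 1.02).

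Markers of other cell types were low in both lines. Of 10 fibroblast markers, 3 passed the filter, with ACTA2, smooth muscle actin, at 6.37 ± 0.470 FPKM in HepG2 and 0.429 ± 0.130 in HCT116, and the highest library of COL1A2, COL3A1, DCN and LUM held at most 0.0104 FPKM. Of 8 endothelial markers 1 passed, ESAM (1.75 ± 0.138 FPKM in HCT116 and 2.74 ± 0.196 in HepG2), while VWF and CDH5 stayed at or under 0.0674 FPKM. The 10 fibroblast markers summed to 6.38 to 7.29 FPKM in HepG2 and 1.23 to 1.46 in HCT116, and the 8 endothelial markers to 3.08 to 3.56 and 1.69 to 2.00 FPKM. Of 9 neuroendocrine markers 3 passed, ENO2 and SYP higher in HepG2 and SCG2 higher in HCT116 (7.43 ± 0.443 against 0.0147 ± 0.0140 FPKM).

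Reference genes that are often used to scale expression mostly differed by less than 2-fold, as did most tested genes. Of 13 tested, 7 were higher in HCT116, 1 at least 2-fold, 3 were lower and 3 did not pass, with a median of 0.16. Over all tested genes 85.6% were called, 11.9% were at least 2-fold higher and 15.7% at least 2-fold lower, with a median of -0.0055. When scaled to total reads, 10 of the 13 were higher and 2 lower. Actin (ACTB) was 1442, 1603 and 1529 FPKM in HCT116 and 1554, 1694 and 1606 in HepG2 and did not pass (log2 -0.09). YWHAZ, an adaptor protein, was the exception at 319 ± 8.15 and 111 ± 1.36 FPKM (log2 1.51).

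Of 15 antigen presentation genes, 7 stayed under the filter in both lines. Among the 8 tested, 7 were lower in HCT116, 4 at least 2-fold, and 1, PSMB10, was higher (log2 0.51). Without copy rows 5 of 6 were lower. Of all tested genes 85.6% were called in either direction and 15.7% were at least 2-fold lower. CD74, the invariant chain of class II molecules, was 28.1, 29.6 and 30.1 FPKM in HepG2 and 0.136, 0.170 and 0.151 in HCT116 (log2 -4.71), and ERAP2, which trims peptides for class I, 6.03 ± 0.303 and 0.234 ± 0.0675 FPKM. All 27 HepG2 libraries lay above those of HCT116 for CD74. Of 20 cancer-testis genes 5 passed the filter, with MAGEB2 and MAGEA3 higher in HCT116 (1.75 ± 0.260 against 0 ± 0 FPKM for MAGEA3, which has a copy row), and MAGED1, MAGED2 and MAGED4, which are expressed in many tissues, lower.

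The line difference was not spread evenly over the chromosomes. Among 5265 genes of at least 5 FPKM in both lines and without a copy row, 51.2% were higher in HCT116 and the median was 0.02. On chromosome 20 the median of 183 genes was -0.71 and 86.9% were lower in HCT116, with medians from -0.76 to -0.66 in the 8 treated groups. Chromosome 2 (377 genes, median -0.38, 80.6% lower), chromosome 10 (230 genes, -0.30) and chromosome 6 (214 genes, -0.27) lay the same way. Chromosome 8 stood highest (173 genes, 0.45, 75.1% higher), followed by chromosome 19 (314 genes, 0.24). Genes of a chromosome share a line and its libraries and are not replicates, so no test is given. DNA copy number was not measured in these samples and its part in the medians was not tested.

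**Figure D5:**
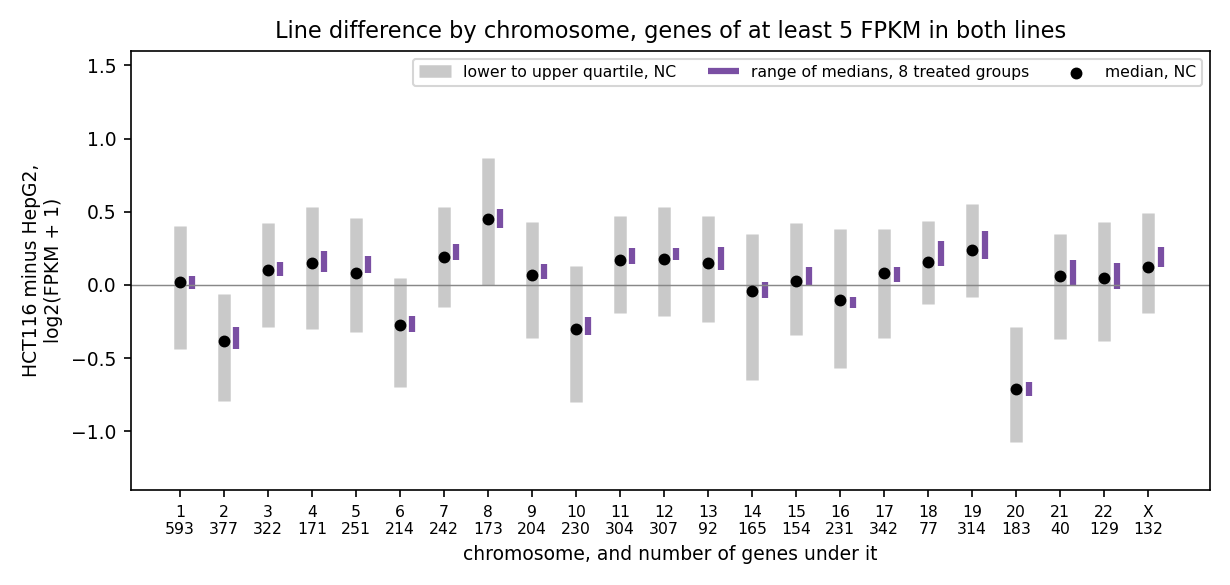
Black points are the median difference (HCT116 minus HepG2, log2(FPKM + 1)) of genes of at least 5 FPKM in both lines on each chromosome, grey bars the range between the lower and upper quartile of the genes and purple bars the range of the medians over the 8 treated groups. Chromosome 20 lies lowest at -0.71 and chromosome 8 highest at 0.45, and their ranges in treated cells stay near the NC medians.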

How the data were processed

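Poly(A) RNA was sequenced from 54 libraries, 3 in each of 18 groups. The authors deposited FPKM values for 50037 gene entries in 1 table, per the file headers, and the submitters' processing notes name FastQC, HISAT2, StringTie and GRCh38. The assignment of reads from similar genes or from the opposite strand is not described in these sources. Another 48 columns of the authors' comparisons were not used. For all 36451 entries above 0 the FPKM values came out as whole reads within a tolerance of 0.01 read, which gave each library's depth. Depth sets the precision of low values.

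Genes with an FPKM of at least 1 in at least 3 libraries of either line were tested (12992) on log2(FPKM + 1) with limma 3.58.1 in R 4.3.3, fitting all 54 libraries with 18 group means and a trend, and with Benjamini-Hochberg adjustment over all genes (called at 0.05). The fit was tested on simulated data. Counts of replicates differed beyond what sampling gives (chi-square over its degrees of freedom 7.85 to 9.57 in HCT116 NC and 9.23 to 12.8 in HepG2 NC), so each was counted as a library. Symbols were matched to RefSeq for 12624 of the 12992 genes, and promoter motifs were searched on both strands with Python 3.11.15. Named genes were the 12 largest called differences each way (at least 5 FPKM, no overlap in NC, no copy row), the 5 highest genes of each line, and members of 35 lists. The members and lists were chosen with earlier results of these data known. Of 207 tested genes named, 108 overlap another annotated gene, so their reads are less certain. Some members are not reported here. Alternatives covered the pseudocount, filter, scaling, model, replicate block, carry-over and each replicate left out.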

Additional observations from a re-analysis of the deposited data

Results flagged for a closer look

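For 4 named genes the difference between the lines had the opposite sign in a treated group from that in NC, and the change itself passed limma's test over all genes. The size given is the line difference (HCT116 minus HepG2, log2(FPKM + 1)) in the treated group minus that in NC. SOCS3 changed by -2.84 after IL-6 for 6 h, with the values given in the report. DDIT4 changed by 2.50 after Torin1 for 6 h. MT2A, a metallothionein, changed by -0.992 after IL-6 for 6 h, where it was 412 ± 38.7 FPKM in HCT116 and 487 ± 33.3 in HepG2 (in NC 439 and 260.5), limma adjusted p = 2.61e-08. HOXA5 changed by -0.767 after TNF-α for 3 h, where it was 1.11 ± 0.118 FPKM in HCT116 and 1.75 ± 0.216 in HepG2 (in NC 2.39 and 1.59), limma adjusted p = 1.60e-06. SOCS3 and DDIT4 were singled out after their values were seen. The treated groups share their NC libraries, and each group held 3 libraries.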

How the results depend on the processing

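Counts of calls followed the filter and the threshold. A filter of 5 FPKM gave 7300 calls, 3510 of them higher in HCT116 and 950 at least 2-fold higher, because fewer genes were tested. With no filter 8844 were higher. Asking for 2-fold gave 3589 calls, 1543 higher and 2046 lower. A voom fit on the recovered reads, chosen after seeing the data and with no pseudocount of 1 FPKM, gave 2351 genes at least 2-fold higher and 2775 at least 2-fold lower, close to the 2284 and 2733 with a pseudocount of 0.1. Leaving out each NC library in turn gave 10891 to 10942 calls, 5364 to 5411 higher and 5515 to 5539 lower, 1533 to 1556 at least 2-fold higher and 2039 to 2054 at least 2-fold lower, and 8739 to 8748 that held in all 8 treated groups. Subtracting 0.05% of the other line's mean from each library gave 11120 calls. The median shares in the HepG2 NC libraries were above this, at 0.0511%, 0.0869% and 0.204%, so the count cannot show the effect of removing shares of that size. The replicate numbers did not pair the samples: deviations of same-numbered libraries correlated at 0.066, 0.01 and -0.012, and a fit with the replicate number as a block gave 11140 calls and 8792 held.

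The 207 named genes had 4105 values under the alternatives, the 2-fold threshold among them. Of these values 4034 kept their sign and call, 43 lost the call and 16 gained it. Some change was seen in 48 of the genes. The other 12 values turned sign, all of them small differences and all under another scaling. Upper-quartile scaling gave 0.0623 for ACTB, 0.11 for ATP6, 0.0864 for MEST, 0.12 for PGAM1 and 0.0757 for PGK1. Scaling to total reads gave 0.15 for ACTB, 0.20 for ATP6, 0.0368 for F12, 0.17 for MEST, 0.0039 for PMS1, 0.20 for PGAM1 and 0.16 for PGK1. These scalings move all genes together, by 0.1177 and 0.1881 for the first and second of them. The lower depth of HCT116 limits its lowest values, and levels at or below the cross-line share cannot be read as expression.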
